A study of Mus musculus with 39 samples.

Results

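RNA that took up a label in the living mouse during the 6 h before harvest was compared, gene by gene, with RNA that took up the same label while muscle stem cells were being isolated. The comparison used 8 of the 39 mouse libraries of the series, 4 in each group, and all 16979 genes of the table that holds them. Libraries were chosen by their titles alone, replicates 1 to 4 of each group, and no measured value entered the choice. The study asks what muscle stem cells transcribe in the animal, as against what they transcribe while they are taken out of it.

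For the 6 h label, mice of the genotype Pax7CreER/+ : UPRTHA/+ received 4-thiouracil (4tU) by injection 6 h before their hindlimb muscles were taken, and the labelled RNA was pulled down from the RNA of the whole muscle. For the isolation label, 4tU was added while stem cells were purified over about 6 h (the labels name no other genotype), and the labelled RNA was pulled down from the RNA of the purified cells. The labels describe both groups as muscle stem cells with no alpha-amanitin, the transcription inhibitor used elsewhere in the series. Neither pull-down was done without 4tU or without the enzyme in the libraries used here, so RNA carried over without a label has no direct measurement. The total RNA of whole muscle and of isolated cells, which was not pulled down, served as the source RNA of each label (4 libraries each, no 4tU). Having no 4tU, it was not the very RNA that the pull-downs were drawn from, so 4tU treatment differs as well. The labels give neither age nor sex, and do not say whether replicates came from separate animals, so the p-values speak of the spread among these libraries and that spread may be technical.

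Muscle stem cells, or satellite cells, lie under the basal lamina of the muscle fibre and stay quiescent until injury, and Pax7 marks them. UPRT, uracil phosphoribosyltransferase, lets a cell turn 4tU into a nucleotide that RNA polymerase builds into new transcripts, and the sulphur atom is then used to pull those transcripts down. With the enzyme switched on by the tamoxifen-dependent Cre of Pax7-expressing cells, the design places the label in RNA made by those cells and by what descends from them. Enzymatic and mechanical dissociation of muscle is known to start stress and early response transcription in satellite cells.

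The 6 h label had 30933516 to 87375972 reads per library and the isolation label 2321903 to 7742378, as recovered from the deposited RPKM values (reads scaled by gene model length and library size). Replicates of the 6 h label correlated across genes at r = 0.997 to 0.999, and those of the isolation label at 0.90 to 0.948. The isolation label split by fibre RNA, since a list of 38 fibre genes took 4.29, 13.2, 14.1 and 4.56% of reads in replicates 1 to 4. In the 6 h label the same list took 16.97, 16.8, 16.9 and 16.6%, in whole muscle 28.7 to 29.3% and in isolated cells 0.324 to 0.462%. A list of 28 satellite cell markers took 0.131, 0.146, 0.141 and 0.129% in the 6 h label and 0.762, 0.5303, 0.472 and 0.8604% in the isolation label, against 0.0992 to 0.103% in whole muscle and 1.97 to 2.04% in isolated cells. The libraries of the 6 h label, labelled as muscle stem cells, thus held both lists closer to the shares of whole muscle than to those of isolated cells. Pax7 itself stood there at 0.402, 0.282, 0.277 and 0.311 RPKM in replicates 1 to 4. None of the 28 satellite cell or 38 fibre genes was at 0 throughout a group. In bulk libraries such as these, fewer cells of a type and less RNA per cell cannot be told apart.

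Of 13003 genes tested with limma on log2(RPKM + 0.5), 5010 (38.5%) were higher in the 6 h label and 3178 (24.4%) were lower (63.0% in either direction) at a Benjamini-Hochberg adjusted p under 0.05, here termed called. At least a 2-fold difference was found for 2886 (22.2%) and 2257 (17.4%) of the genes tested. Libraries did not overlap between the groups for 5005 genes (38.5%) with the 6 h label higher. The same held for 3113 (23.9%) with the isolation label higher, so a lack of overlap was common. The median gene stood 0.31 log2 units higher in the 6 h label, and single differences are to be read against that. Counts of called genes in the lists below are likewise to be read against 38.5% higher and 24.4% lower. The higher genes were 61.2% of all calls with the authors' library scaling, 34.5% with library sizes from all reads and 45.4% with library sizes that leave out gene models known only by number. Gm10800, a numbered model, alone stood at 306472, 237315, 260859 and 345385 RPKM in the 6 h label and 67349, 41464, 41106 and 39789 in the isolation label, against 2562 in whole muscle and 2360.0 in isolated cells. Without the 2 isolation libraries richest in fibre RNA (replicates 2 and 3), 5788 genes were higher and 2434 lower. All adjusted p-values of single genes below come from this limma fit, with 4 libraries in each group. Folds were taken after 0.5 was added to each RPKM, so those of genes at low levels are too small.

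Many of the largest differences belonged to genes with known roles. Heat shock, early response and chemokine genes were among those furthest above in the isolation label, and fasting, glucocorticoid and FoxO genes among those furthest above in the 6 h label. For the heat shock, NF-kB and fasting lists, the 250 bases before the start of 2 genes are printed, because binding motifs of the factors known to drive them can be read there.

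**Figure D1:**
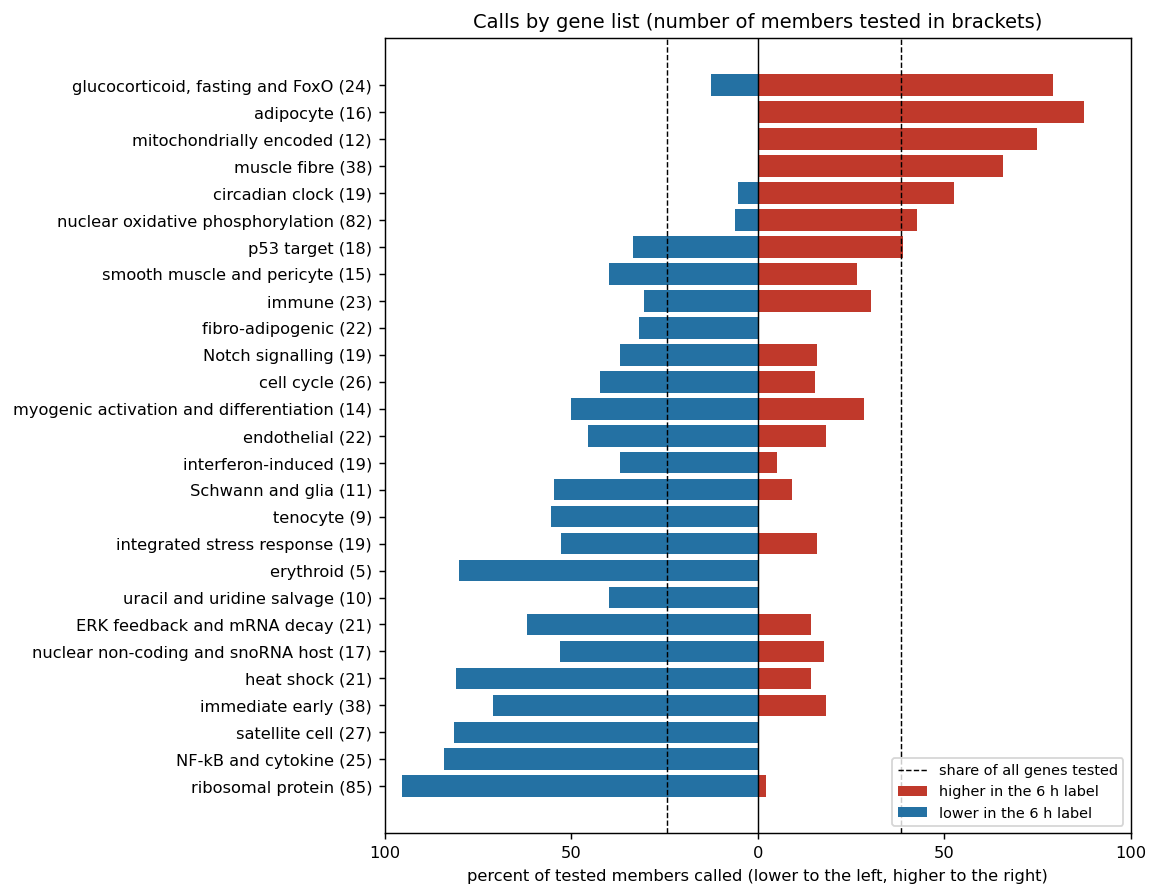
Percent of the tested members of each gene list that were called higher in the 6 h label (red, to the right) or lower (blue, to the left), with the number tested in brackets and dashed lines at the share of all genes tested (38.5% higher, 24.4% lower). The ribosomal protein and NF-kB lists reach furthest to the left at 95.3% and 84%, and the adipocyte list furthest to the right at 87.5%.

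Heat shock genes encode chaperones that refold damaged proteins and are switched on by heat shock factor 1. Of 21 tested, 17 were lower in the 6 h label and 3 higher, with a median of -1.55, against 0.31 for all genes. The promoters of Hspa1b and Hspb1 are printed with the inverted repeat of the heat shock element, GAANNTTC, in capitals, from the RefSeq table on GRCm38.p6, 5′ to 3′ along the gene. They lie at chr17:34959239-34959488 (minus strand) and chr5:135887669-135887918 (plus strand).
Hspa1b: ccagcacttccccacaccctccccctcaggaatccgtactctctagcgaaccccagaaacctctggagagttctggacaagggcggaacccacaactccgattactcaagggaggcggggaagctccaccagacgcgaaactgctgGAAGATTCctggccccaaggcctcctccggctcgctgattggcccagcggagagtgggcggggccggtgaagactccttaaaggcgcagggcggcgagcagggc
Hspb1: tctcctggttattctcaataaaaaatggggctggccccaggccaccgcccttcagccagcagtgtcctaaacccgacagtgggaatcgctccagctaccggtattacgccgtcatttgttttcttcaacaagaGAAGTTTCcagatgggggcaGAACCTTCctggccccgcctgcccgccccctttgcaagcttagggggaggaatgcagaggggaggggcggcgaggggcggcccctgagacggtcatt
The motif, which reads the same on both strands, was found in the 250 bases before the start of 6 of 17 heat shock genes with a window (35.3%) and of 480 of 9536 tested genes (5.03%).

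Hspa1b and Hspa1a encode the inducible Hsp70 chaperone from near-identical copies that can share reads. Hspa1b stood at 5.38, 4.76, 4.72 and 4.41 RPKM in the 6 h label and 1128, 1037, 835 and 1493 in the isolation label (replicates 1 to 4), a 207-fold difference (log2 -7.7, adjusted p = 9.73e-09). Hspa1a stood at 3.61, 3.23, 3.83 and 3.601 and 727, 668, 599 and 958 RPKM. Both genes were far apart between the groups, with every isolation library more than 100-fold above every library of the 6 h label. Dnajb1, the Hsp40 partner of Hsp70, stood at 19.6, 22.01, 21.6 and 20.6 RPKM against 2839, 2529.7, 2318 and 3529 (129-fold, adjusted p = 5.33e-09). Whole muscle held 14.6 RPKM of it and isolated cells 1547, so the sources were far apart in total RNA as well.

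Hspb1, the small heat shock protein Hsp27, was the most abundant of the list in the isolation label, at 305, 287, 292 and 330.4 RPKM in the 6 h label and 6315, 5716, 5295 and 7807 in the isolation label (log2 -4.35, adjusted p = 1.06e-07). The isolation label held it far above the total RNA of the isolated cells (621 RPKM). Hsph1, an Hsp110 exchange factor, was 20.8-fold lower in the 6 h label, Hspe1, the mitochondrial Hsp10, 8.86-fold, and Cryab, a lens and muscle chaperone, 1.88-fold. The 3 exceptions were Hspb8 (log2 1.79), Chordc1 (0.84) and Dnajb4 (0.36), which were higher in the 6 h label, Dnajb4 not with library sizes from all reads. With that scaling 18 of the 21 were lower and 1 was higher.

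Immediate early genes are transcribed within minutes of a stimulus without new protein. Of 38 tested, 27 were lower in the 6 h label and 7 higher (median -1.65). Fos, a subunit of the AP-1 transcription factor, stood at 15.6, 15.2, 15.7 and 15.1 RPKM in the 6 h label and 513, 429.6, 400.3 and 785 in the isolation label (32.3-fold, adjusted p = 2.69e-07). Fosb, its relative, stood at 0.394, 0.415, 0.375 and 0.235 and 167, 135, 107 and 225 RPKM. Egr1, a zinc finger early response factor, stood at 4.75, 5.14, 4.94 and 4.22 and 574, 441, 374 and 819 RPKM (log2 -6.65, adjusted p = 8.93e-08). In each of the 3 the groups were widely separated, while replicate 4 was the highest and replicate 3 the lowest of the isolation libraries.

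Other AP-1 genes divided. Junb was 38.8-fold and Jund 38.3-fold lower in the 6 h label, whereas Jun stood at 201, 234, 223 and 214 RPKM against 226, 241, 199 and 372 and did not pass (log2 -0.21, adjusted p = 0.345), with overlapping libraries. Ier2 was 17.7-fold lower, and Cebpd, a CCAAT enhancer binding factor, 1.82-fold. The early genes that were higher in the 6 h label were Klf10 (log2 1.54), Gadd45a (1.5), Rhob (1.26), Klf6 (1.2), Gadd45g (0.88), Ctgf (0.73) and Nr4a1 (0.52), the last changing sign with library sizes from all reads. Gadd45g stood at 471, 526, 511 and 511 RPKM in the 6 h label and 307, 249, 257 and 286 in the isolation label, with no overlap. With library sizes from all reads the early genes counted 30 lower and 3 higher. No early gene promoter is printed, since few held a CArG box, the site of serum response factor, or a CRE (TGACGTCA). The CArG box was found in 1 of 28 (3.57%) against 1.23% of all, and the CRE in 2 of 28 (7.14%) against 2.73%. Sites more than 250 bases before the start, or with other letters, were not searched for. Other motifs searched for varied. An AP-1 site (TGANTCA) was found in 1 of 28 (3.57%) against 4.32%, and the heat shock repeat in 3 of 28 (10.7%) against 5.03%. A glucocorticoid palindrome and a FoxO site, described below, were found in 1 of 28 each (3.57%), against 0.283% and 2.08%. An E-box (CACGTG) was found in 7 of 28 (25%) against 8.56%, and an NF-kB site in 4 of 28 (14.3%) against 4.30%.

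The NF-kB pathway holds transcription factors kept in the cytoplasm by IkB proteins, and its targets include chemokines and the IkB genes themselves. Of 25 tested, 21 were lower in the 6 h label and none was called higher (median -1.86). An NF-kB site was found in 10 of 20 promoters of this list (50%) and in 410 of 9536 (4.30%). The site is searched for on both strands, and the promoters of Cxcl1 and Nfkbia at chr5:90890995-90891244 (plus strand) and chr12:55492648-55492897 (minus strand) show it in capitals. In Cxcl1 the capitals cover a pair of overlapping matches, 1 on each strand. An AP-1 site (TGANTCA), not marked here, was found in 5 of 20 promoters of this list (25%) and in 412 of 9536 (4.32%).
Cxcl1: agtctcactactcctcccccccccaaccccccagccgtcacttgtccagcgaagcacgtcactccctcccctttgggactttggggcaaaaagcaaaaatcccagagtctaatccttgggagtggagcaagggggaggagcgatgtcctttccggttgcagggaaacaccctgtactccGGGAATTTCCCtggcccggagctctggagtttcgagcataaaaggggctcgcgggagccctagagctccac
Nfkbia: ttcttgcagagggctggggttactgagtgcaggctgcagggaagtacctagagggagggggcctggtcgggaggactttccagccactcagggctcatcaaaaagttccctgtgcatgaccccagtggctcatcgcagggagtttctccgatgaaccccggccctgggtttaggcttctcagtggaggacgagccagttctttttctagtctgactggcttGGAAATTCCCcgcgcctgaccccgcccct
A match in these letters is a description of the sequence and was not tested as a binding site.

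Cxcl1, a neutrophil chemokine, stood at 4.07, 3.79, 3.37 and 3.4 RPKM in the 6 h label and 840.4, 548, 588 and 1132 in the isolation label (179.7-fold, adjusted p = 3.62e-08). The chemokine genes Ccl2, Ccl7 and Cxcl2 were 18.7-fold, 14.03-fold and 11.7-fold lower in the 6 h label. Nfkbia, which encodes the inhibitor IkB alpha, stood at 157, 166, 166 and 166 RPKM against 379.8, 330.1, 336 and 499, a smaller difference (log2 -1.22, adjusted p = 1.21e-04). It was the most abundant member of the list in the 6 h label, above its level in whole muscle (61.6 RPKM). Bcl3, a nuclear IkB relative, and Relb, an NF-kB subunit, were 13.4-fold and 5.42-fold lower.

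Feedback and mRNA decay genes of the ERK and cytokine pathways counted 13 lower and 3 higher of 21 (median -0.87). Socs3, an inhibitor of cytokine receptor signalling, stood at 4.81, 4.81, 5.09 and 4.72 RPKM against 119, 97.7, 93.5 and 127 (20.3-fold, adjusted p = 4.19e-08). Zfp36, which promotes the decay of AU-rich mRNA, stood at 74.02, 92.9, 84.2 and 78.8 against 395, 331, 290.1 and 644. Dusp6, an ERK phosphatase, went the other way, at 20.7, 19.5, 19.4 and 20.2 RPKM in the 6 h label and 8.31, 5.41, 7.03 and 8.81 in the isolation label (log2 1.4). It was joined by Dusp14 and Spred1 (log2 0.65 and 0.61), and with library sizes from all reads only 1 gene of the list was called higher.

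Among genes of secreted peptides outside these lists, Nppc and Gal had the deepest differences of all those named. Nppc, the C-type natriuretic peptide, stood at 1.04, 0.762, 0.8305 and 0.616 RPKM in the 6 h label and 429, 379, 313 and 499 in the isolation label (307-fold, adjusted p = 5.33e-09). Gal, the neuropeptide galanin, stood at 4.66, 5.07, 4.51 and 6.102 and 1642, 1381, 1215 and 1952 RPKM (274-fold). Ccl19, a lymphocyte chemokine, was 108-fold lower and Fam132b, the hormone erythroferrone, 81.2-fold. Defb25, a defensin, ranged from 42.2 to 199.9 RPKM within the isolation label (76.8-fold against the 6 h label).

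Genes of the fasting, glucocorticoid and FoxO programme switch muscle from glucose to fat and start the breakdown of muscle protein. Of 24 tested, 19 were higher in the 6 h label and 3 lower, with a median of 2.37, the highest of the 27 lists. In this group a glucocorticoid palindrome (ACA, any 3 bases and TGT, flanked by G and C at a distance of 1 base) was found in 3 of 19 promoters (15.8%) and in 27 of 9536 (0.283%), and a FoxO site (GTAAACA, either strand) in 3 of 19 (15.8%) and 198 of 9536 (2.08%). Trim63 and Txnip hold both motifs, shown in capitals in the windows at chr4:134314870-134315119 (plus strand) and chr3:96557707-96557956 (plus strand), the palindrome first.
Trim63: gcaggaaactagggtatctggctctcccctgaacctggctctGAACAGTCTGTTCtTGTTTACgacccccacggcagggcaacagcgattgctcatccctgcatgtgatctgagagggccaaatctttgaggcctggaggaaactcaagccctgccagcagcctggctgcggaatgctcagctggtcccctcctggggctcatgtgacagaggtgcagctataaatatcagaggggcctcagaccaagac
Txnip: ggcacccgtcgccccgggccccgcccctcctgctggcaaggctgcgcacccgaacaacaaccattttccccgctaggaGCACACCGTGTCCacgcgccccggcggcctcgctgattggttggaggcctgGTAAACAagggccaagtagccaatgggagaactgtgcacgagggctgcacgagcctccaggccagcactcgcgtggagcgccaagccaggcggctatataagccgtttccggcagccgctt
The palindrome spans both strands, and the FoxO letters of Trim63 lie on the opposite strand to the gene. An E-box (CACGTG), not marked here, was found in 5 of 19 promoters of this list (26.3%) and in 816 of 9536 (8.56%).

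Pdk4, the kinase that shuts pyruvate dehydrogenase and so spares glucose, stood at 1612, 1779, 1727 and 1724 RPKM in the 6 h label and 26.1, 35.6, 33 and 25.9 in the isolation label, 56.3-fold apart (log2 5.82 ± 0.14 SE, adjusted p = 1.15e-08). Whole muscle held 79.9 RPKM of it and isolated cells 29.3. The 6 h label thus exceeded the isolation label and both sources for this gene, and the isolation label was level with isolated cells. Trim63, the ubiquitin ligase MuRF1 of muscle atrophy, stood at 1418, 1662, 1616 and 1589 RPKM against 36.8, 77.2, 90.1 and 39.2 (27.6-fold, adjusted p = 1.93e-06). Txnip, an inhibitor of thioredoxin and glucose uptake, stood at 1265, 1428, 1429.6 and 1376 against 53.96, 94.3, 77.9 and 75.5 (18.4-fold). The isolation replicates 2 and 3, rich in fibre RNA, were the highest of their group for Trim63, at 77.2 and 90.1 RPKM.

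Ucp3, a mitochondrial carrier of muscle, was 45.8-fold higher, at 285, 354, 337 and 309 RPKM against 3.95, 9.905, 9.47 and 4.71. Foxo1, the transcription factor of the fasting response, stood at 53.9, 67.3, 65.6 and 66.9 RPKM in the 6 h label and 4.096, 5.24, 3.32 and 3.77 in the isolation label (log2 3.81, adjusted p = 2.97e-07). Zbtb16, a glucocorticoid-induced zinc finger gene, stood at 65.9, 77.4, 77.9 and 75.4 against 6.39, 3.35, 4.37 and 3.04. For both genes the 6 h label was also above whole muscle (3.81 and 8.57 RPKM), and the isolation label was below isolated cells (6.47 and 11.8). Ddit4, which restrains mTORC1, stood at 236, 331, 315 and 290.4 RPKM against 14.4, 14.3, 18.7 and 31.1 (15.2-fold, adjusted p = 2.40e-06).

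Named after their values were seen, the atrophy ligase Fbxo32 (log2 2.95), the glucocorticoid receptor co-chaperone Fkbp5 (3.07), Tsc22d3, the glucocorticoid-induced leucine zipper (3.91), and the muscle glucocorticoid target Klf15 (15.97-fold) were also higher. The metallothionein genes Mt1 and Mt2, which bind zinc, went the other way. Mt1 stood at 1006, 1096, 1067 and 1058 RPKM in the 6 h label and 7258, 5831, 5617 and 9273 in the isolation label (log2 -2.7, adjusted p = 3.31e-06), and Mt2 was 10.2-fold lower. Cebpd was the third to be lower. The counts of this list were 18 higher and 5 lower with library sizes from all reads, and 19 and 3 without the 2 fibre-rich isolation libraries.

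**Figure D2:**
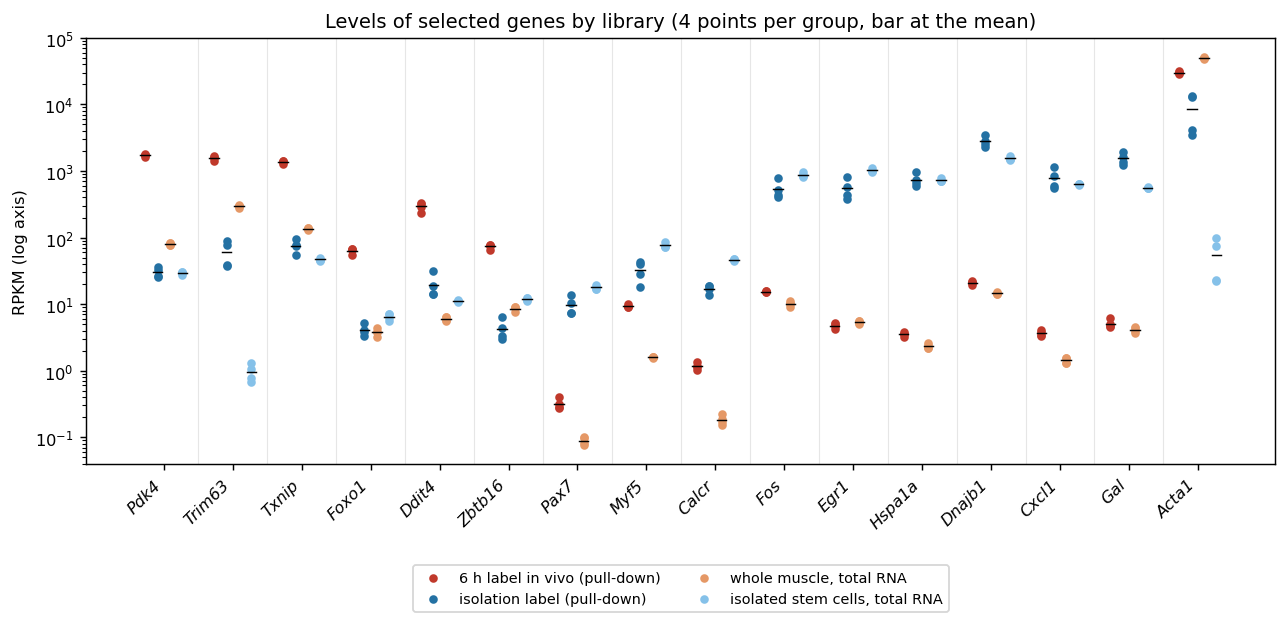
RPKM on a log axis of 16 genes in each of the 4 libraries of the 6 h label, the isolation label, whole muscle and isolated cells, with a bar at the mean. From Pdk4 to Zbtb16 the 6 h label lies highest, from Pax7 to Gal the isolation label lies above the 6 h label, and for Acta1 the isolation libraries divide into 2 high and 2 low.

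Further genes led the rise in the 6 h label. Odf3l2, a gene named for sperm tail fibres, stood at 322, 390.5, 373 and 355 RPKM against 2.71, 8.71, 8.801 and 2.96, the largest rise of the named genes (64.7-fold, adjusted p = 1.96e-06). Pck1, a gluconeogenic enzyme, was 51.7-fold higher, Plin4, a lipid droplet coat protein, 29.3-fold, and Ppp1r3c, a glycogen-targeting phosphatase subunit, 28.95-fold. Mylk4, a myosin light chain kinase, Ip6k3, an inositol phosphate kinase, Tob1, an antiproliferative factor, and Arrdc2, an arrestin relative, were 22.7-fold, 18.3-fold, 18.4-fold and 17.8-fold higher. Of the 12 genes with the largest rises, all were of the whole muscle class, whose total RNA level in muscle is at least 2-fold that in isolated cells. Of the 12 with the deepest falls, all were of the isolated cell class, defined the other way round. Of all genes tested, 35.6% were of the whole muscle class and 22.2% of the isolated cell class, and class sizes depended on the library scaling.

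Clock genes keep daily rhythms in most tissues. Of 19 tested, 10 were higher in the 6 h label and 1, Npas2, was lower (log2 -1.5), with a median of 0.77. Ciart, a repressor of the clock, stood at 13.6, 15.6, 16.5 and 15.4 RPKM against 0.257, 0.858, 0.889 and 1.24 (12.5-fold, adjusted p = 3.42e-06). The nuclear receptor genes Nr1d1 and Nr1d2, which repress Bmal1, were 4.83-fold and 5.95-fold higher, and the period genes Per1 and Per3 2.41-fold and 2.52-fold. Arntl and Clock, which form the activating pair, did not pass (log2 0.13 and 0.36, adjusted p = 0.334 and 0.0512), and Arntl changed sign with library sizes from all reads. Times of day are not given in the labels, so the phase of each group is unknown. With library sizes from all reads 9 were higher and 4 lower.

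Satellite cell markers were lower in the 6 h label in 22 of 27 tested and none was called higher (median -1.81). Pax7, at the level given above in the 6 h label, stood at 10.5, 7.35, 7.31 and 13.8 RPKM in the isolation label (log2 -3.6, adjusted p = 2.10e-06) and at 17.9 RPKM in isolated cells. Myf5, a myogenic determination factor transcribed in satellite cells, stood at 10.1, 9.06, 9.295 and 9.16 RPKM against 39.9, 28.5, 18.05 and 43.2 (3.16-fold, adjusted p = 4.15e-04). Calcr, the calcitonin receptor of quiescent satellite cells, stood at 1.34, 1.19, 1.13 and 1.02 against 17.04, 18.4, 13.5 and 18.5. The libraries of the 2 groups did not overlap for any of the 3 genes, as for 23.9% of all genes tested with the isolation label higher.

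Against the total RNA of whole muscle the 6 h label held more of several of these markers, though the median of the list was only log2 0.36. Myf5 averaged 9.396 RPKM in the 6 h label and 1.58 in whole muscle (log2 2.25), but 32.4 in the isolation label and 76.02 in isolated cells (log2 -1.29). The same held for the surface markers Chodl (log2 2.19 and -1.32), Sdc4 (2.64 and -1.10), Calcr (1.29 and -1.43) and Fgfr4 (1.80 and -0.63). In Itga7, an integrin, and Cdh15, M-cadherin, the 6 h label was below whole muscle (log2 -1.40 and -0.88). Chrdl2, an extracellular antagonist of BMP signalling, was the marker furthest apart in the direct comparison, at 2.13, 2.15, 2.25 and 2.26 RPKM against 113, 113, 96.9 and 151 (43.6-fold).

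Notch signalling holds satellite cells in quiescence. Of 19 genes tested, 7 were lower (36.8%) in the 6 h label and 3 higher (15.8%), with a median of -0.30. The receptor Notch3 stood at 2.02, 1.92, 2.05 and 1.79 RPKM against 29.4, 22.8, 17.3 and 36.6 (10.7-fold, adjusted p = 2.57e-06), and the target genes Heyl, Hey1 and Hes1 were 10.4-fold, 4.34-fold and 2.85-fold lower. Lfng, a glycosyltransferase that tunes Notch receptors, was higher (7.41, 7.92, 7.63 and 8.34 against 4.62, 3.57, 4.27 and 3.01 RPKM), as were Jag2, a ligand, and Maml1, a coactivator (log2 0.97 and 0.79). None of the 3 was called higher with library sizes from all reads, where 11 genes were lower.

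Genes of myogenic activation and differentiation divided, with 7 of 14 lower and 4 higher. Myod1, which commits satellite cells to differentiate, stood at 11.5, 10.9, 12.4 and 11.5 RPKM in the 6 h label and 107, 86.3, 80.02 and 135 in the isolation label (8.32-fold, adjusted p = 1.35e-06). Myog, the later differentiation factor, was also lower (log2 -0.72, adjusted p = 0.0174). Myf6, the family member of mature fibres, was higher, at 887, 856, 859.7 and 894 RPKM against 32.02, 139, 161 and 44.5 (log2 3.53). Within the isolation label Myf6 followed fibre RNA, with replicates 2 and 3 at 139 and 161 RPKM and replicates 1 and 4 at 32.02 and 44.5.

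Fibre genes encode the contractile machinery, calcium handling and energy supply of mature fibres, and are markers of another cell than the stem cell. Of 38 tested, 25 were higher in the 6 h label and none was called lower (median 1.32). Acta1, skeletal muscle actin, stood at 30196, 28765, 29499.5 and 31295 RPKM in the 6 h label and 3420.0, 12818, 13575 and 4084 in the isolation label (4.26-fold, adjusted p = 0.00311), against 54.05 in isolated cells. Tnnt3, a fast troponin, stood at 16996, 16211, 16268 and 18019 against 1627, 6062, 6473 and 1780.4 RPKM. Both genes had isolation replicates 2 and 3 far above replicates 1 and 4, and none reached the 6 h label. The count of higher fibre genes was 36 without isolation replicates 2 and 3. It was 17 without replicate 1, 16 without replicate 4, and 13 with library sizes from all reads.

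**Figure D3:**
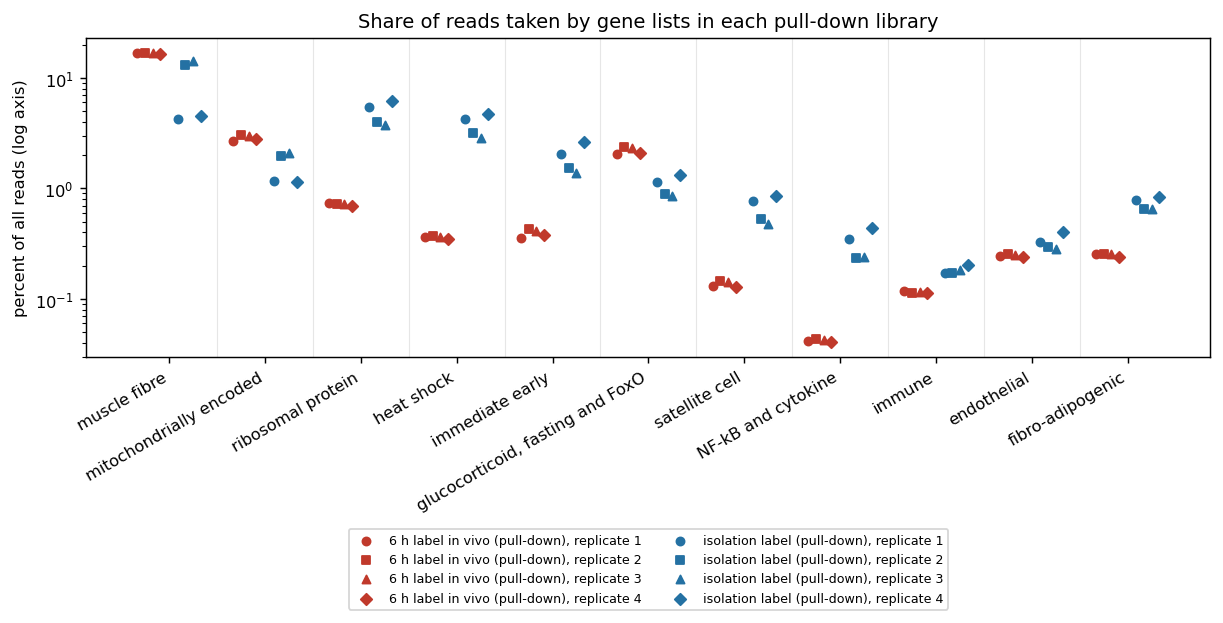
Percent of all reads, on a log axis, taken by 11 gene lists in each library of the 6 h label (red) and the isolation label (blue), with a marker for each replicate. In the isolation label replicates 2 and 3 have the higher fibre shares (13.2% and 14.1%) and the lower satellite cell, heat shock and early gene shares, and in the 6 h label the replicates lie close together.

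Shares of the stress lists in the isolation libraries ran against the fibre share. Early genes took 2.04, 1.54, 1.38 and 2.64% of reads in replicates 1 to 4, and heat shock genes 4.22, 3.19, 2.85 and 4.68%. In the 6 h label they took 0.357, 0.432, 0.413 and 0.377% and 0.3601, 0.3703, 0.363 and 0.346%. The groups did not overlap in either share, and the part of fibre RNA in the spread among isolation libraries was not tested.

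Markers of other cells of muscle did not move together. Of 22 endothelial genes 10 were lower (45.5%) and 4 higher (18.2%) in the 6 h label, against 24.4% and 38.5% of all genes tested. Plvap, of fenestrated endothelium, stood at 6.35, 7.097, 6.67 and 8.21 RPKM against 70.98, 80.5, 52.4 and 88.01 (log2 -3.26), and Fabp4, a fatty acid carrier of capillaries and fat, at 2838, 2746, 2759 and 2943 against 1196, 1384, 1395 and 1299.7 (log2 1.1). The share of the endothelial list was 0.241 to 0.253% in the 6 h libraries and 0.285 to 0.400% in those of the isolation.

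Of 22 fibro-adipogenic genes 7 were lower (31.8%, against 24.4% of all genes tested) and none was called higher. With library sizes from all reads 15 were lower. Dcn, the matrix proteoglycan decorin, stood at 270.1, 249, 254 and 264 RPKM against 332, 445, 518 and 516 (log2 -0.78, adjusted p = 0.00221). The share of the list was 0.241 to 0.257% in the 6 h libraries and 0.647 to 0.828% in those of the isolation. Dcn stood at 58.8 RPKM in the total RNA of isolated cells, below the isolation label.

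The immune list gave 7 higher (30.4%) and 7 lower (30.4%) of 23, near the 38.5% and 24.4% of all genes tested. With library sizes from all reads 2 were higher and 9 lower. Higher in the 6 h label were macrophage genes such as C1qb (86.4, 81.4, 79.5 and 86.8 against 33.7, 58.1, 47.5 and 35.7 RPKM) and Csf1r (log2 0.98). Lower were S100a9, of neutrophils (log2 -2.62), and Cd52 and Cd74, of lymphocytes and antigen presentation (log2 -1.76 and -0.71). The immune share of reads ran from 0.113 to 0.119% in the 6 h libraries, 0.170 to 0.201% in those of the isolation and 0.0408 to 0.0431% in isolated cells. Globin and other erythroid genes were lower in 4 of 5 tested. Their share was 0.0302 to 0.0359% against 0.0711 to 0.0988%, and the globin copies can share reads.

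Smooth muscle and pericyte genes gave 6 lower (40%) and 4 higher (26.7%) of 15, against 24.4% and 38.5% of all genes tested. With library sizes from all reads 7 were lower and 1 higher. Acta2, smooth muscle actin, was 11.5-fold lower in the 6 h label (21.1, 19.9, 20.8 and 21.5 against 236, 247, 236 and 259 RPKM), and the pericyte gene Rgs5 was higher (log2 0.8). The list took 0.237 to 0.252% of reads against 0.331 to 0.382%. Of 11 Schwann cell genes 6 were lower and 1, Mpzl2, higher (log2 1.12, shares of 0.0219 to 0.0247% and 0.0684 to 0.0956%). Of 9 tenocyte genes 5 were lower (2 of 10, and 1 higher, with reads thinned to the smallest library), and their shares were 0.0143 to 0.0156% and 0.0218 to 0.0354%. Their part in the differences above was not tested.

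Adipocyte genes were higher in the 6 h label in 14 of 16 tested and lower in none (median 1.84). Lep, the hormone leptin, stood at 14.2, 18.2, 17.3 and 14.97 RPKM against 1.13, 2.31, 1.89 and 1.101 (8.11-fold, adjusted p = 4.61e-06), and Cidec, of lipid droplets, at 185, 219.6, 213 and 206 against 8.34, 22.8, 28.3 and 9.005. Adipoq and Cfd did not pass (log2 1.07 and 0.91, adjusted p = 0.0586 and 0.0845). Several list members, Pck1, Lpl, Slc2a4, Pnpla2 and Lipe among them, are also transcribed in other tissues, muscle included. The share of the list was 0.496 to 0.554% in the 6 h libraries, 0.144 to 0.303% in those of the isolation and 0.524 to 0.567% in whole muscle.

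Ribosomal protein genes were lower in the 6 h label in 81 of 85 tested and higher in 2 (median -2.16). Rps27 stood at 304, 281, 275 and 279.7 RPKM against 4065, 3539, 3059 and 5464 (log2 -3.79, adjusted p = 6.54e-07). The 6 h label was close to whole muscle for Rps27 (335 RPKM) and the isolation label was 12.6-fold above isolated cells (313 RPKM). The 2 that were higher were Rpl3l, the muscle-specific paralog of Rpl3 (log2 1.92), and Rpl7l1 (2.01-fold), named after their values were seen. Rpl3 itself was 8.399-fold lower. The share of the whole list was 0.696 to 0.739% in the 6 h libraries, 3.79 to 6.18% in those of the isolation, 0.701 to 0.724% in whole muscle and 1.38 to 1.52% in isolated cells.

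Nuclear genes of oxidative phosphorylation gave 35 higher (42.7%) and 5 lower (6.10%) of 82, with a median of 0.48. All genes tested gave 38.5% and 24.4%, with a median of 0.31, so the share higher was near that of all genes. The counts depended on the scaling, since with library sizes from all reads 6 were higher and 19 lower. Without the 2 fibre-rich isolation libraries 69 were higher and 5 lower. Isoforms of cytochrome c oxidase subunits divided. Cox6a2, the heart and muscle form of subunit VIa, stood at 1178, 1082, 1072 and 1153 RPKM against 209, 791, 817 and 248 (log2 1.39, adjusted p = 0.0207), and Cox7a1, the muscle form of VIIa, was also higher (log2 1.38). Cox6a1, the form of other tissues, stood at 131, 121, 124 and 130.4 against 1039, 893, 801 and 1260.3 RPKM (log2 -2.95, adjusted p = 9.84e-07), and Cox8a and Cox4i2 were 5.43-fold and 3.23-fold lower. Cox7a1 is named after its value was seen.

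Of 12 genes of the mitochondrial genome 9 were higher in the 6 h label and none was called lower (median 1.40). The count mixes abundant genes with genes of few reads. CYTB averaged 6960 RPKM in the 6 h label and 3802 in the isolation label, COX3 11.3 and 3.91, and COX2 2.34 and 1.34. In the isolation libraries COX3, which was called, had 10 to 29 reads, and COX2, which was not, had 1 to 6. ND6, on the light strand, stood at 3179, 3075, 2952 and 3265 RPKM against 470.2, 684, 828 and 505 (5.14-fold, adjusted p = 1.05e-05), and ND5 was 4.89-fold higher. Strand use in counting was not given, so reads of ND6 cannot be told from reads of the opposite strand. Mitochondria are transcribed by their own polymerase. The mitochondrial share was 2.69 to 3.06% in the 6 h libraries and 1.15 to 2.11% in those of the isolation, with replicates 2 and 3 again the higher. Non-coding RNA of the nucleus divided by kind. Neat1, the scaffold of paraspeckles, was 9.38-fold higher (88.01, 100.1, 97.7 and 97.02 against 7.33, 11.6, 13.5 and 7.74 RPKM) and Malat1 2.898-fold, while the snoRNA host genes Snhg15, Gas5 and Zfas1 were 8.701-fold, 4.44-fold and 3.97-fold lower.

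Integrated stress response genes gave 10 lower and 3 higher of 19. Chac1, a glutathione-degrading enzyme, stood at 190.3, 197, 199.9 and 203 RPKM against 11.4, 18.5, 10.4 and 22.6 (12.8-fold), while Ppp1r15a, the phosphatase subunit GADD34, and the chaperone Hspa5 were 6.93-fold and 6.38-fold lower, and Atf4 itself did not pass (log2 0.24, adjusted p = 0.137). Targets of p53 gave 7 higher (38.9%) and 6 lower (33.3%) of 18, and 6 higher and 7 lower with library sizes from all reads. All genes tested gave 38.5% and 24.4%, so the share higher was near that of all genes. Trp53inp1, an autophagy and stress protein, was 7.996-fold higher and Bax, an apoptosis effector, 2.66-fold lower.

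Cell cycle genes gave 11 lower (42.3%) and 4 higher (15.4%) of 26, against 24.4% and 38.5% of all genes tested. The D cyclins Ccnd1 and Ccnd3 and their kinase Cdk4 were 3.97-fold, 4.19-fold and 4.16-fold lower in the 6 h label. Cdkn1b, the inhibitor p27, stood at 6.58, 6.76, 7.03 and 6.99 RPKM in the 6 h label and 0.957, 0.767, 0.918 and 1.58 in the isolation label (log2 2.26, adjusted p = 9.48e-06), with no overlap. Interferon-induced genes gave 7 lower (36.8%) and 1 higher (5.26%) of 19, the lower led by Ifitm3 (10.5-fold) and Isg15 (10.4-fold). With library sizes from all reads 11 were lower and none was called higher. Among 10 genes of uracil and uridine salvage, the route by which 4tU enters RNA, 4 were lower (40%) and none was called higher. With library sizes from all reads 8 were lower, and without the 2 fibre-rich isolation libraries 2 of 8 were lower and 1 higher. Upp1, uridine phosphorylase, stood at 0.999, 0.793, 0.974 and 0.906 RPKM against 13.9, 11.1, 11.6 and 12.7 (9.03-fold), and Uck2, a uridine kinase, was 5.097-fold lower.

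The direct comparison ran along the difference between the sources. Across 12492 genes the difference between the labels correlated at r = 0.48 with the difference between whole muscle and isolated cells, a description across genes that share libraries of each tissue. In the whole muscle class 2269 of 4631 genes (49.0%) were higher in the 6 h label and 546 (11.8%) lower. In the isolated cell class 424 of 2884 (14.7%) were higher in the 6 h label and 1579 (54.8%) lower. The 5488 genes of neither class gave 2317 (42.2%) higher and 1053 (19.2%) lower.

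**Figure D4:**
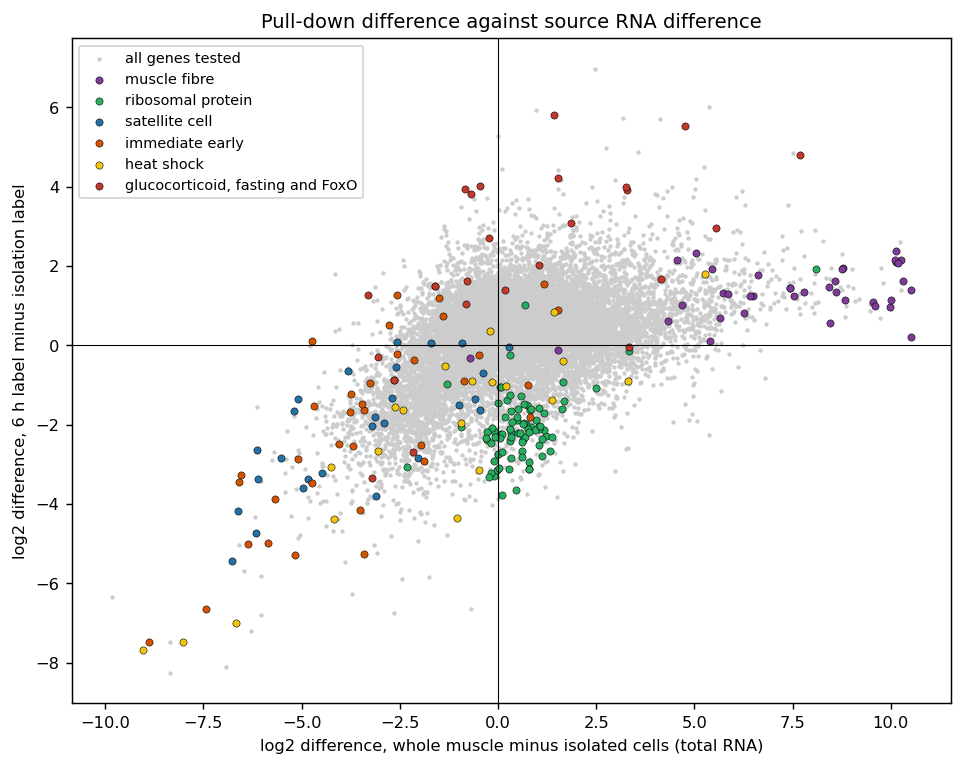
Log2 difference between the 6 h label and the isolation label (vertical) against the log2 difference between the total RNA of whole muscle and of isolated cells (horizontal), 1 point per gene, with 6 lists in colour. Most satellite cell and early genes lie at the lower left and fibre genes at the right. Heat shock genes lie mostly below 0, on both sides of the vertical line, and ribosomal protein genes mostly below 0 near the middle.

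Some genes went against their source. Higher in the 6 h label, though of the isolated cell class, were Hr, a nuclear receptor corepressor, Tiparp, a mono-ADP-ribosyltransferase, Hivep2, a zinc finger factor, and Trp53inp1. Trp53inp1 stood at 18.98, 22.4, 21.8 and 19.6 RPKM in the 6 h label and 2.56, 2.28, 1.65 and 2.17 in the isolation label, with 2.201 in whole muscle and 6.55 in isolated cells. Tiparp stood at 86.99, 106, 93.3 and 87.8 against 24.1, 16.8, 15.99 and 23.8 RPKM (log2 2.21, adjusted p = 7.13e-06). Hr and Hivep2 were 6.903-fold and 6.06-fold higher.

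Lower in the 6 h label, though of the whole muscle class, were Igfbp7, a growth factor binding protein of vessels (24.7, 26.8, 26.8 and 36.1 against 300.0, 369.9, 429.5 and 597 RPKM), and Crip1, a LIM domain protein (11.97-fold). The neutrophil granule genes Camp and Ngp (8.996-fold and 9.01-fold) and Myl9, a smooth muscle light chain (7.97-fold), did the same. For Igfbp7 the isolation label lay above both sources, whose means were 91.6 RPKM in whole muscle and 32.3 in isolated cells.

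Each label was also set against the total RNA of its source, which was not the very RNA that was pulled down. The 6 h label minus whole muscle was compared with the isolation label minus isolated cells in 1 limma fit over 16 libraries. Differences between the preparations therefore enter what is termed enrichment here, and their part was not tested. Of 15451 genes tested, 5989 (38.8%) had the larger enrichment in the 6 h label and 5157 (33.4%) in the isolation label (72.1% in either direction), with a median of 0.23. With library sizes from all reads these were 9679 and 3191, and with library sizes without numbered gene models 10233 and 2832. With a filter of 5 RPKM they were 2527 and 4570 of 8672, and the median was -0.68. Which side held more genes therefore depended on the filter, and directions given here are relative to the authors' scaling.

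The 8 named genes with the largest differences of enrichment in favour of the 6 h label were transporters, regulators and fasting genes. Ddit4 stood at log2 5.48 over whole muscle in the 6 h label and 0.71 over isolated cells in the isolation label (difference 4.77 ± 0.26 SE, adjusted p = 2.48e-10). The amino acid transporter Slc7a8 and the zinc transporter Slc39a14 came next, with differences of 4.74 and 4.59. Per1 stood at 4.04 and -0.53, Foxo1 at 3.89 and -0.61, and Zbtb16 at 3.04 and -1.42. The elongation factor gene Ell2 and the repressor Bach1 had differences of 4.44 and 4.39. In each of these 7, but not in Ddit4, the isolation label lay below isolated cells. Slc39a14 was lower in the 6 h label in the direct comparison (log2 -1.55), and the other 7 were higher.

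Satellite cell genes, lower in the direct comparison, had the larger enrichment in the 6 h label in 21 of 28 tested and the smaller in 6 (median of the difference 1.36). Their median stood at 0.36 over whole muscle in the 6 h label and -0.98 over isolated cells in the isolation label. Early genes had the larger enrichment in the 6 h label in 27 of 38 and the smaller in 8 (median 1.67). The early gene medians were 1.28 and -0.43 in the same order. Fos stood at 0.58 over whole muscle and -0.77 over isolated cells (difference 1.35, adjusted p = 5.03e-05), and Zfp36 at 1.92 and -0.54. Heat shock genes divided into 7 and 10 of 21. The fasting list gave 16 and 5 of 24 (median 1.49).

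Fibre genes had the larger enrichment in the isolation label in 37 of 38 (median -6.64). Acta1 stood at -0.74 in the 6 h label and 7.31 in the isolation label, on levels of 8474 and 54.05 RPKM in the isolation label and isolated cells. Mylpf, a fast myosin light chain, had the deepest difference of the named genes (-9.11), followed by the adipocyte gene Cfd (-9.10). All 82 oxidative phosphorylation genes, 82 of 85 ribosomal protein genes (median -2.74), 18 of 23 immune genes and 16 of 22 fibro-adipogenic genes were on the same side. The median member of each of these 5 lists was above isolated cells in the isolation label (by 5.32 log2 units for fibre, 3.38 for oxidative phosphorylation, 2.52 for ribosomal protein, 2.76 for immune and 1.31 for fibro-adipogenic genes). In the 6 h label it was below whole muscle (-1.42, -1.11, -0.17, -0.67 and -0.23 in the same order). The fibre list took 4.29 to 14.1% of reads in the isolation label and 0.324 to 0.462% in isolated cells, which were separate preparations. Neither a difference between the preparations nor carry-over of unlabelled RNA was tested.

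**Figure D5:**
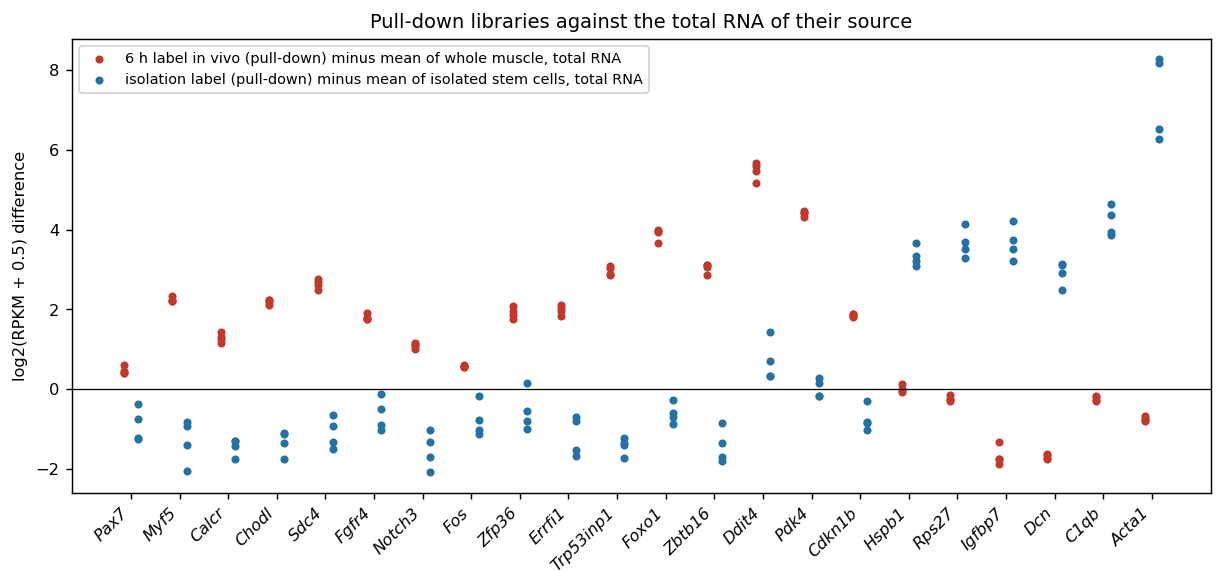
Log2(RPKM + 0.5) of each library of the 6 h label minus the mean of whole muscle (red) and of each library of the isolation label minus the mean of isolated cells (blue), for 22 genes. From Pax7 to Cdkn1b the red means lie above the blue, with Ddit4 highest at 5.48, and from Hspb1 to Acta1 the blue means lie above the red, with Acta1 highest at 7.31.

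Gene length moved with the difference between the labels (Spearman rho across genes 0.19). Within the isolated cell class rho was 0.49, within the whole muscle class 0.21 and among genes of neither class 0.32. Genes higher in the 6 h label had a median model length of 4019 bp, lower genes 2574.5 bp and all tested genes 3434 bp. Among the 2599 shortest genes (56 to 1788 bp) 27.05% were higher and 40.1% lower, and among the 2601 longest (5948 to 116824 bp) 49.2% were higher and 15.9% lower. The same order held within the genes of the isolated cell class, at medians of 6189.5 bp for higher and 3038 bp for lower genes, and within the whole muscle class, at 2891 and 1688.5 bp. Ribosomal protein genes and small secreted peptides such as Gal are among the short genes, and the part of length in their differences was not tested.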

How the data were processed

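Poly(A) RNA was copied by oligo(dT) priming and sequenced, per the labels' protocols, so RNA without a poly(A) tail is measured poorly. The authors deposited RPKM values per gene. Reads were handled with STAR, Trim Galore, featureCounts of Subread and edgeR on mm10, per the submitters' processing notes. Strand use in counting was not given in the sources used here, so overlapping and antisense genes cannot be told apart, and near-identical copies can share reads. Whole reads were recovered from the RPKM values: 100% of values came out within 0.1 read of a whole number. Depth was 30933516 to 87375972 reads in the 6 h label and 2321903 to 7742378 in the isolation label.

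Genes with at least 1 RPKM in at least 3 of the 8 libraries were tested on log2(RPKM + 0.5) with limma 3.58.1 (trend, R 4.3.3), with Benjamini-Hochberg adjustment over all tested genes. The difference of enrichments used 16 libraries and the same scale. Genes at least 2-fold apart between whole muscle and isolated cells at an adjusted p under 0.05 formed the source classes. Tables and figures used Python 3.11.15, pandas 2.3.3, numpy 2.4.6 and matplotlib 3.10.9. The fit was tested on simulated data with known changes. Those data held neither the fibre split of the isolation libraries nor the authors' library scaling, so the test does not bear on either. Alternatives changed the pseudocount, the filter, the library sizes, the depth, the fit and the libraries.

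The members and lists were chosen with earlier results of these data known. Named genes were the 12 largest rises and falls, each list's members (all where at most 12 were tested, otherwise the 6 with the smallest adjusted p and the 3 most abundant), up to 8 genes each way against their source class, 8 each way in the difference of enrichments, and 9 fixed genes (Pax7, Myf5, Myod1, Fos, Jun, Egr1, Hspa1a, Acta1 and Gm10800). Rises and falls needed at least 5 RPKM on average in the higher group and no overlap. Adipoq, Arntl, Chordc1, Clock, Cox7a1, Ctgf, Dnajb4, Dusp14, Fbxo32, Fkbp5, Gadd45a, Hspb8, Jag2, Klf10, Klf15, Klf6, Maml1, Myog, Npas2, Nr4a1, Rhob, Rpl3l, Rpl7l1, Spred1 and Tsc22d3 were named after their values were seen.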

Additional observations from a re-analysis of the deposited data

Results flagged for a closer look

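In 14 of the 360 groups of 4 libraries checked, the library at one end stood apart from the other 3 by more of the group's range than Dixon's 95% critical value for 4 samples allows, and chance gives about 1 in 20. The values that follow are the gap divided by the range. The read totals of the 6 h label did so (0.906), with replicate 4 at 87375972 reads against 30933516 to 36263387 in the other 3. Numbered gene models took 5.58, 5.66, 6.22 and 9.76% of reads in the isolation libraries in rising order (0.847). In the 6 h label 1 library was low for Atf4 (0.859), Fkbp5 (0.862), Foxo1 (0.872) and Nfkbia (0.944), and 1 was high for Arntl (0.879) and Cox7a1 (0.866). In the isolation label 1 library was high for Cebpd (0.843), Gm10800 (0.939), Ifitm3 (0.929), Isg15 (0.875) and Per1 (0.835), and 1 was low for Per3 (0.946).

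For 33 named genes the 2 labels lay on opposite sides of their source RNA, each by at least 1 log2 unit and each past an adjusted p of 0.05 in limma, and the difference of the enrichments also passed. Over all genes the same held for 1193 of 11177 with both enrichments tested (10.7%), and several of the named genes were chosen for a large difference of enrichments, so nothing is read from the count. The values are that difference in log2 units, 6 h label minus isolation label. Above whole muscle in the 6 h label and below isolated cells in the isolation label were Slc7a8 (4.74), Slc39a14 (4.59), Zbtb16 (4.46), Bach1 (4.39), Trp53inp1 (4.38), Sdc4 (3.74), Hivep2 (3.63), Myf5 (3.54), Chodl (3.51), Fam132b (3.49), Tiparp (3.36), Calcr (2.73), Notch3 (2.63) and Nr1d2 (2.59). These 14 genes include the satellite cell markers Sdc4, Myf5, Chodl and Calcr, the receptor Notch3 and the regulators of the fasting and clock lists Zbtb16 and Nr1d2.

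Below whole muscle in the 6 h label and above isolated cells in the isolation label were Mylpf (-9.11), Cfd (-9.10), Cox6a2 (-8.88), Cox7a1 (-7.37), Adipoq (-6.74), Ngp (-6.15), S100a9 (-5.87), Igfbp7 (-5.33), Myl9 (-4.94), Camp (-4.83), Cd52 (-4.73), Dcn (-4.59), Plvap (-4.31), Cryab (-4.23), Ccl19 (-4.11), Ifitm3 (-3.75), Cd74 (-3.65), Ccl7 (-3.09) and Ccl2 (-2.41). These 19 genes include fibre, adipocyte, neutrophil, antigen presentation and vessel genes. The part of RNA from other cells in them was not tested.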

How the results depend on the processing

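With library sizes from all reads, 2558 genes were higher in the 6 h label and 4855 lower, the difference of enrichments gave 9679 and 3191, and the source classes held 1928 (whole muscle) and 10129 (isolated cells) genes. Library sizes without numbered gene models gave 10233 and 2832 in the difference of enrichments. A filter of 5 RPKM left 3535 higher and 1771 lower of 7744 genes. In the difference of enrichments it gave 2527 higher and 4570 lower of 8672, so the side with more genes changed, and the median moved from 0.23 to -0.68. Leaving out genes of the whole muscle class left 2782 higher genes. Leaving out 1 library at a time gave 4216 to 5281 higher and 2783 to 2913 lower genes, 5658 to 6599 and 4977 to 5490 in the difference of enrichments, and source classes of 4621 to 4695 and 4790 to 5022 genes. Medians of lists changed sign in these cases. With the filter of 5 RPKM, the myogenic list stood at 0.31, the immune list at -0.0051 and the smooth muscle list at -0.22. With library sizes from all reads, the immune list stood at -0.43, smooth muscle at -0.61, p53 targets at -0.015 and oxidative phosphorylation at -0.071. Without numbered models in the library sizes, immune stood at -0.22 and smooth muscle at -0.093. Without the whole muscle class, p53 targets stood at -0.35, smooth muscle at -0.72, and the fibre (-0.31) and oxidative phosphorylation (-1.69) lists kept 1 gene each. Immune stood at -0.021 without isolation replicate 2 (-0.021 to 0.27 when any 1 library was left out), and smooth muscle at -0.085 without isolation replicates 2 and 3, an alternative chosen after seeing the data. Genes that changed sign with library sizes from all reads were Arntl (-0.41), Dnajb4 (-0.19), Lyz2 (-0.12), Bhlhe40 (-0.095) and Nr4a1 (-0.039). That scaling moved the median over all genes by -0.53, and the cause was not tested. No gene called in both was called in opposite directions under any setting run. Same-numbered libraries of the 2 labels did not deviate together (r = 0.029, 0.0020, -0.050 and 0.0080), and a fit with the replicate number as a block gave 4732 higher and 3062 lower genes. limma-voom on recovered reads gave 5598 and 3464, and reads thinned to the smallest library 4628 and 2659, both within 1.5 times of the counts as reported. The planned edgeR alternative was not run, because the deposited unit is RPKM.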
